A study of Mus musculus and Rattus norvegicus with 37 samples.

Results

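Gene expression was compared between the livers of obese Zucker Fatty rats (ZFRs) and lean Zucker rats (ZLRs), using the 8 of the series' 37 RNA-seq samples that belong to this contrast (4 per genotype). The study asked how the liver handles lipid when the miR-29 family of microRNAs is inhibited in mice, and turned to the ZFR as a rat model of fatty liver. The ZFRs were male fa/fa animals, whose mutation lies in the leptin receptor gene, and the ZLRs were their lean controls, for which the sources used here give no further genotype. Both groups were 5.5 months old, ate chow ad libitum on a light/dark cycle, received no drug and were sampled in the fed state. Genotype and obesity, with its food intake, therefore cannot be told apart. The hour of collection in each group is not given in the sources used here. Libraries were made from polyadenylated RNA of whole liver, so fewer cells of a type and less RNA per cell cannot be told apart. Nothing in the labels ties the samples to separate litters or cages, and p-values measure the spread between these samples. Of 32750 entries in the table, 8633 genes had a mean of at least 10 normalized counts and were tested.

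As background, loss of leptin signalling makes rats eat more and become obese and insulin resistant. The liver of such animals is known for steatosis, which builds up when fatty acids made in the liver from glucose (de novo lipogenesis) or taken up from blood exceed those burned by fatty acid oxidation (FAO) or exported in very low density lipoprotein (VLDL). Insulin drives lipogenesis through the factor SREBP-1c and glucose through ChREBP, whereas growth hormone, which falls in obesity, keeps up a separate male-typical program in rat liver through STAT5b.

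The depth of the libraries differed by a factor of 310. As estimated from the value of 1 read in each column, ZFR replicates 1 to 4 held 58500248, 1560996, 952255 and 1239677 reads. The ZLR replicates held 56429441, 46077498, 188490 and 189397. In ZLR replicates 3 and 4, 1 read was worth 10.5 and 10.4 normalized counts, so a value of 100 there rests on about 9.5 reads, and 742 and 648 of the tested genes were at 0, against 4 to 57 in the other 6. Across 1125 well-expressed genes (mean of at least 200) the libraries still sorted by genotype, with Pearson's r of 0.965 to 0.973 within ZFR, 0.925 to 0.966 within ZLR and 0.803 to 0.874 between groups. All 10 liver cell markers were tested and abundant, and their summed level was 275860 to 362317 in ZFR and 306276 to 364754 in ZLR.

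ZFR liver differed from ZLR liver in 367 genes, 4.25% of those tested (limma on log2(normalized count + 1), Benjamini-Hochberg adjusted p under 0.05). Of these, 155 were higher in ZFR (1.80%) and 212 lower (2.46%), and 207 changed by more than 1 on the log2 scale, 101 up and 106 down. An unadjusted p under 0.05 was found in 1429 genes. The 4 ZFR values lay wholly above or below the 4 ZLR values in 1250 genes (14.5%; 7.80% above and 6.68% below), and in 365 of the 367 called. Calls became more frequent with abundance, so the counts of called members given for lists below depend on how abundant their genes are. The median log2 fold change of the genes tested fell with abundance, from 0.26 at means of 10 to 30 to -0.19 at 1000 or more. List medians below therefore depend on abundance too, and the cause was not tested. Among the 225 genes with a mean of at least 1000, 19 were called higher and 62 lower (36%), whereas among the 3114 genes between 10 and 30 only 16 and 14 were called, a range in which the mean corresponds to about 1 to 3 reads in the 2 shallowest libraries. Without ZLR replicates 3 and 4, 506 genes were called, 274 higher and 232 lower, so the balance of directions went from 42.2% to 54.2% higher. A two-sided exact permutation test of 4 against 4 cannot give a p below 0.0286, so single genes were judged by the fit across all genes. Where a call was lost when 1 library was left out of the fit, the libraries concerned are given in brackets as ZFR or ZLR 1 to 4, with the largest adjusted p among those fits. Of 109 called genes followed through these fits, 57 were kept whichever library was left out. The brackets do not cover the other settings, in which the adjusted p can be far larger (for Tf 0.74 in limma with no minimum mean). Of the 109, no minimum mean lost 50, TMM scaling 38 and the replicate block 36. Of the 57, TMM scaling lost 5 (Gapdh, Slc2a2, Dbi, Agt and Cyp2d2; adjusted p 0.059 to 0.12), no minimum mean lost 3 (Hal, Sult1c2a and Fetub; adjusted p 0.056 to 0.068), and the replicate block lost Slc2a2 (adjusted p = 0.073).

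**Figure D1:**
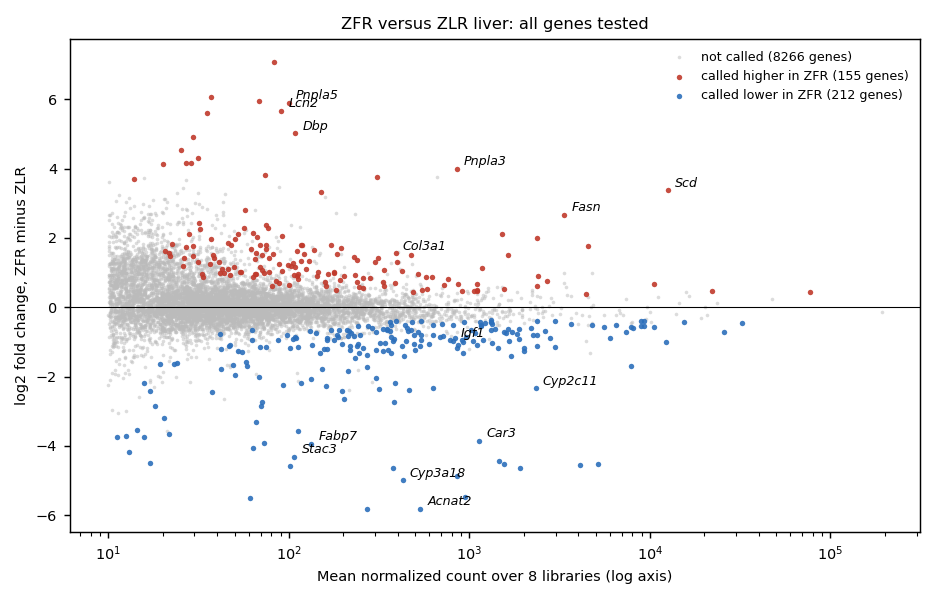
Each point is 1 of the 8633 genes tested, with its mean normalized count over 8 libraries on a log axis and its log2 fold change (ZFR minus ZLR) on the vertical axis. The 155 genes called higher (red) and 212 called lower (blue) stand out against the rest (grey), and the grey cloud widens to the left, where the shallow libraries hold few reads.

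The lipogenic genes stood well apart between genotypes. All 5 testable members of the 6 lipogenic genes that the study names for rats rose in ZFR, with a median log2 fold change of 1.77 beside 0.07 over all genes tested. The study picked these genes in its mouse livers and already reports them as significantly higher in ZFRs than in ZLRs. Acly, which splits citrate into cytosolic acetyl-CoA, measured 3958, 3766, 4159 and 3261 normalized counts in ZFR replicates 1 to 4 and 841, 1131, 1013 and 795 in ZLR replicates 1 to 4, a 4.03-fold rise (log2 fold change 2.01, SE 0.13, limma adjusted p = 3.2e-05). Fasn, the fatty acid synthase, measured 7295, 5557, 5074 and 5216 against 1095, 753, 864 and 940 and rose 6.32-fold (SE 0.15 on the log2 scale, adjusted p = 1.5e-05). Both genes were several times higher in every ZFR library than in any ZLR library, the shallow ones included.

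Acss2, which makes acetyl-CoA from acetate, measured 327, 274, 276 and 224 in ZFR and 77.3, 113, 94.8 and 94.0 in ZLR, a 2.88-fold rise (adjusted p = 0.00072). Thrsp, a nuclear protein induced with lipogenesis, measured 7264, 6540, 7080 and 6944 against 3175, 1961, 1959 and 1420 and rose 3.41-fold (adjusted p = 0.0012). Pklr, the liver pyruvate kinase and a ChREBP target, measured 2196, 1274, 1538 and 1486 against 910, 716, 580 and 706 and rose 2.21-fold (adjusted p = 0.0069). The groups did not overlap for any of these, and each of the 5 was called in all 17 other settings that kept libraries of both runs. The sixth, the elongase Elovl6, was listed at 0 in 7 libraries and at 0.837 in ZFR replicate 1, so absence and a failed assignment of reads cannot be told apart.

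Of 11 tested genes of fatty acid synthesis and NADPH supply, 3 rose and none fell, with a median log2 fold change of 0.78 (5 rose without ZLR replicates 3 and 4). Of all genes tested 1.80% were called higher. Me1, the cytosolic malic enzyme that yields NADPH, measured 252, 232, 261 and 318 in ZFR and 76.6, 115, 51.9 and 68.6 in ZLR and rose 3.49-fold (adjusted p = 0.0020). Its groups did not overlap. Taldo1, the transaldolase of the pentose phosphate pathway, rose 1.72-fold (adjusted p = 0.047; lost without ZFR 1, 2, 3 and 4 and ZLR 1 and 2, adjusted p up to 0.15).

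Among 8 tested desaturases and elongases, Scd alone rose, and none fell (2 rose without ZLR replicates 3 and 4). Scd, which puts the double bond into stearate, measured 26741, 22958, 22997 and 18151 in ZFR and 4233, 1651, 1896 and 1692 in ZLR, a 10.3-fold rise (log2 fold change 3.37, SE 0.28, adjusted p = 0.00016). Every ZFR library was at least several times above the highest ZLR library. None of the 10 tested regulators of lipogenesis was called by limma (median 0.05, with 4 at an unadjusted p under 0.05), and 0 to 4 were called across settings. Srebf1, the gene of SREBP-1c and the most abundant of them, measured 1786, 1200, 1325 and 1560 in ZFR and 1387, 1036, 727 and 1181 in ZLR (log2 fold change 0.46, SE 0.20, adjusted p = 0.28), with overlapping groups.

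**Figure D2:**
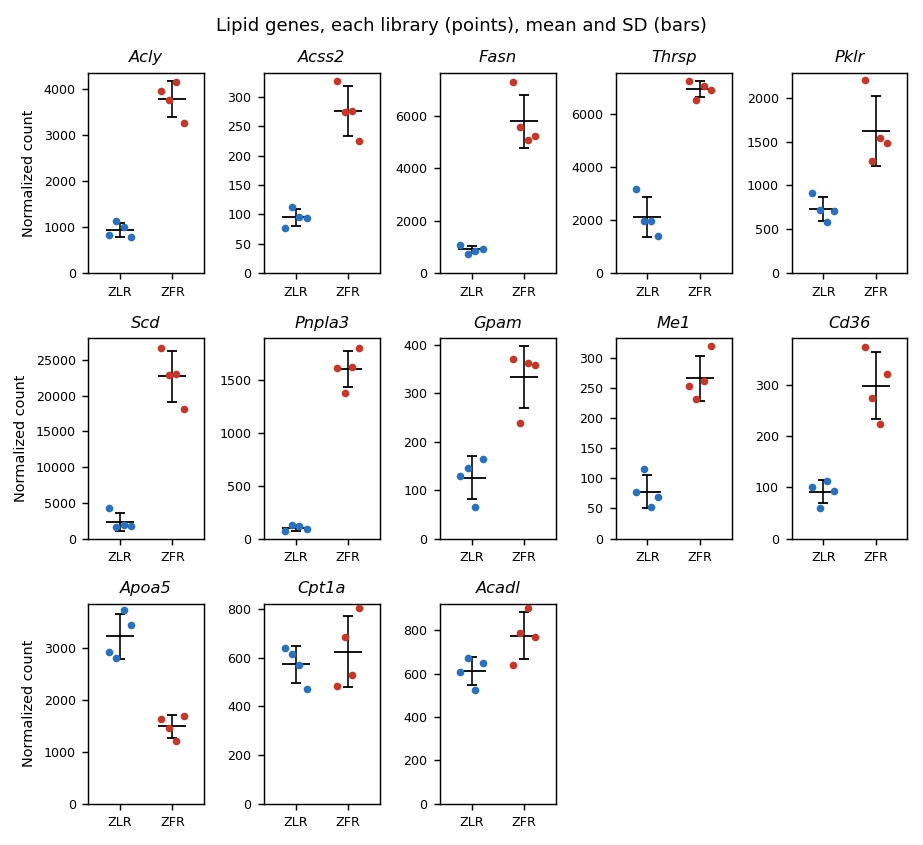
Normalized count of 13 lipid genes in each library (points, ZLR blue, ZFR red), with the mean and SD of 4 libraries as bars. The ZFR points lie above all ZLR points for the 10 genes from Acly to Cd36 and below them for Apoa5, while Cpt1a and Acadl overlap.

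Of 15 tested triglyceride synthesis and lipase genes, 3 rose, none fell and 12 were not called (median 0.34), beside 1.80% of all genes tested called higher. Pnpla3, a patatin-like lipase of lipid droplets whose human variant is tied to fatty liver, measured 1609, 1381, 1619 and 1806 in ZFR and 69.0, 128, 116 and 94.0 in ZLR, a 15.97-fold rise (SE 0.18 on the log2 scale, adjusted p = 6.5e-06). Its relative Pnpla5 measured 222, 181, 186 and 190 in ZFR and 10.3, 9.37, 0 and 0 in ZLR. The fitted log2 fold change of Pnpla5 was 5.89 (adjusted p = 0.0035) and ran from 3.86 to 7.56 across settings, since 2 ZLR libraries at 0 could not resolve values under 10 counts.

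Gpam, the mitochondrial acyltransferase that starts glycerolipid synthesis, measured 371, 238, 363 and 359 in ZFR and 130, 145, 64.3 and 165 in ZLR, a 2.74-fold rise (adjusted p = 0.018). The groups did not overlap (lost without ZFR 1, 3 and 4, adjusted p up to 0.070). Lpin2, a phosphatidate phosphatase, rose 2.53-fold (adjusted p = 0.044; lost without each library but ZLR 1, adjusted p up to 0.14). Of 8 tested lipid droplet proteins only the coat protein Plin3 was called (3.46-fold higher, adjusted p = 0.026; lost without each library but ZLR 4, adjusted p up to 0.086).

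Genes of fatty acid uptake and binding were split, with 3 of 13 tested higher and 4 lower, beside 1.80% and 2.46% of all genes tested. Cd36, the membrane fatty acid translocase, measured 376, 275, 223 and 322 in ZFR and 101, 59.6, 112 and 92.1 in ZLR and rose 3.28-fold (adjusted p = 0.0025). Fabp5 rose 3.44-fold (adjusted p = 0.0076) and the acyl-CoA binding protein Dbi by 0.49 log2 units (adjusted p = 0.0076; 0.097 with TMM scaling). Fabp7, the brain-type binding protein, went the other way. It measured 13.4, 7.06, 14.6 and 35.8 in ZFR and 201, 239, 305 and 251 in ZLR, 15.4-fold lower (SE 0.39 on the log2 scale, adjusted p = 0.00057). The acyl-CoA synthetases Acsl4 (log2 fold change -0.97, adjusted p = 0.0023) and Acsl1 (-0.47, adjusted p = 0.021; lost without ZFR 1, 2 and 3 and ZLR 2, adjusted p up to 0.071) also fell. Slc27a5, the bile acyl-CoA synthetase, fell 2.25-fold (adjusted p = 0.048; lost without each library but ZFR 1 and ZLR 4, adjusted p up to 0.15).

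Fatty acid oxidation gave a different picture from lipogenesis. None of the 4 testable genes of the 5 that the study names for FAO in rats was called by limma (median 0.19; 2 at an unadjusted p under 0.05). Cpt1a, which admits long-chain acyl groups to mitochondria, measured 485, 684, 529 and 806 in ZFR and 642, 616, 569 and 470 in ZLR (log2 fold change 0.10, 95% interval -0.28 to 0.49, adjusted p = 0.77), and its sign turned to -0.04 without ZLR replicates 3 and 4. For Acadl, the long-chain dehydrogenase, the fold change was 0.33 on the log2 scale (interval 0.05 to 0.61, adjusted p = 0.21), with overlapping groups. Fabp1, the liver binding protein, measured 4049, 3060, 3742 and 4172 against 4920, 6299, 5520 and 4678. Its groups did not overlap, yet the difference missed the threshold (log2 fold change -0.51, adjusted p = 0.058). Fabp1 was called in 4 of the 17 other settings that kept libraries of both runs. With weights set by the reads behind each value its adjusted p in limma was 0.037. The study reports its FAO genes as little changed in ZFRs, with Fabp1 the only exception. It used Student's t test with Bonferroni correction, not limma adjusted over all genes tested, so the thresholds are unlike. Fabp2 was below the minimum for testing.

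In the wider list of 20 mitochondrial and peroxisomal FAO genes, 2 fell and none rose (1 fell without ZLR replicates 3 and 4). Called lower were 2.46% of all genes tested, 11.7% of those with a mean of 300 to 1000 and 27.6% of those above. The 2 that fell were Acadm and Acox2. Acadm, the medium-chain dehydrogenase, fell 1.46-fold (adjusted p = 0.032; lost without each library but ZLR 4, adjusted p up to 0.086). Acox2, which shortens the side chain of bile acid precursors, fell 1.73-fold (adjusted p = 0.030; lost without each library but ZLR 3, adjusted p up to 0.095). Bdh1, the ketone dehydrogenase, fell 1.57-fold among 15 PPAR-alpha response and ketone synthesis genes (adjusted p = 0.029; lost without ZFR 1 and 2 and ZLR 2 and 4, adjusted p up to 0.090). Vnn1, a pantetheinase, rose at the edge of the threshold (log2 fold change 1.40, adjusted p = 0.0496; lost without each library but ZLR 4, adjusted p up to 0.16). Of 23 oxidative phosphorylation subunits none was called by limma (median -0.02; 1 at an unadjusted p under 0.05), and Atp5b, the most abundant, stood at 2376 to 2658 in ZFR and 2609 to 2809 in ZLR (adjusted p = 0.51).

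Of 13 tested VLDL and apolipoprotein genes, 5 fell, 1 rose and 7 were not called (median -0.07). Many are abundant, and of all genes with a mean of at least 1000, 27.6% were called lower. Apoa5, which lowers plasma triglyceride by aiding lipoprotein lipase, measured 1633, 1458, 1208 and 1705 in ZFR and 2932, 2813, 3740 and 3446 in ZLR, a 2.16-fold fall (adjusted p = 0.0018). The highest ZFR library lay far below the lowest ZLR library. Apom fell 1.80-fold and Apoc2 1.54-fold (adjusted p = 0.016 and 0.016). Apom was lost without ZFR 4 (adjusted p = 0.055) and Apoc2 without ZFR 1 and 3 (adjusted p up to 0.053). Apob, the structural protein of VLDL, fell by 0.39 log2 units (adjusted p = 0.021; lost without ZFR 1, 3 and 4 and ZLR 2, adjusted p up to 0.079). Apoe fell by 0.45 (adjusted p = 0.039; lost without all 4 ZFRs in turn and ZLR 2, adjusted p up to 0.11). Apoa4 rose 1.68-fold (adjusted p = 0.032; lost without each library but ZLR 3, adjusted p up to 0.11).

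Of 24 tested genes of cholesterol synthesis and LDL uptake 0 were called by limma, beside 4.25% of all genes tested. Of the 24, 17 had a positive log2 fold change and 6 an unadjusted p under 0.05, with a median of 0.25. Across settings 0 to 5 were called, and the list was not tested as a whole. Without ZLR replicates 3 and 4, 2 members of the list were called higher.

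Bile acid genes had the lowest median of the lists with at least 4 genes tested (-0.63), with 5 of 16 tested lower and 1 higher. Called lower were 2.46% of all genes tested and 11.7% of those with a mean of 300 to 1000. Slco1a4, a sinusoidal uptake transporter of organic anions and bile acids, measured 85.3, 112, 149 and 72.5 in ZFR and 689, 457, 543 and 425 in ZLR, a 5.11-fold fall (log2 fold change -2.35, SE 0.23, adjusted p = 0.00057). Cyp7b1, of the alternative synthesis pathway, measured 26.6, 30.7, 13.0 and 38.6 against 66.5, 110, 131 and 130 and fell 4.04-fold (adjusted p = 0.0098). Slc10a1, the main sodium-coupled bile acid importer NTCP, measured 585, 486, 683 and 742 against 1402, 1120, 1064 and 1159 and fell 1.91-fold (adjusted p = 0.0063).

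Groups were fully apart for all 3. Baat, which conjugates bile acids to glycine or taurine, fell by 0.92 log2 units (adjusted p = 0.0077) and Abcb11, the canalicular export pump, by 0.44 (adjusted p = 0.026; lost without all 4 ZFRs in turn and ZLR 1 and 2, adjusted p up to 0.089). Cyp7a1, the rate-limiting enzyme of classical bile acid synthesis, was the exception. It measured 153, 186, 163 and 165 in ZFR and 97.4, 47.8, 73.7 and 52.2 in ZLR, a 2.53-fold rise (log2 fold change 1.34, SE 0.22, adjusted p = 0.0078). Without ZLR replicates 3 and 4 the list still held 5 genes lower and 1 higher.

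**Figure D3:**
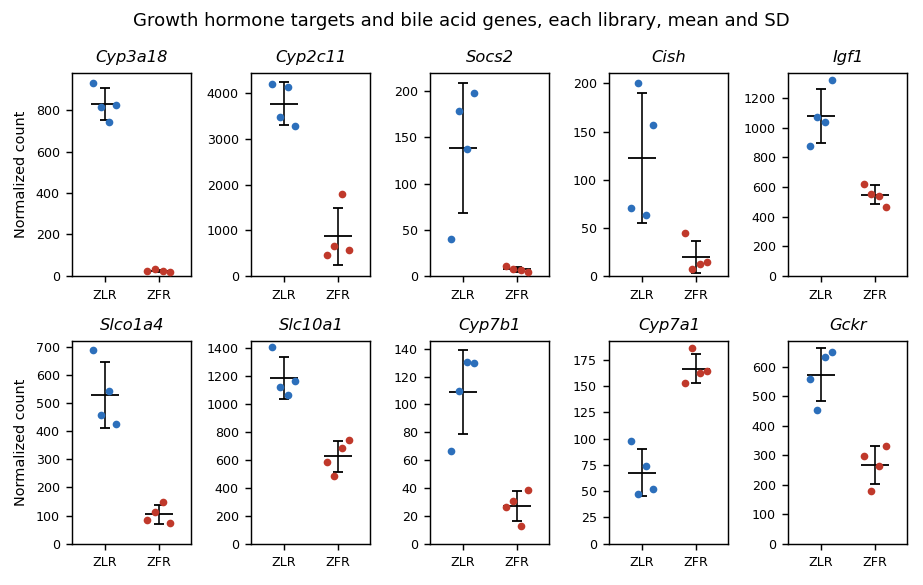
Normalized counts of 10 growth hormone target, bile acid and glucokinase regulator genes in each library (points, ZLR blue, ZFR red), with mean and SD of 4 libraries. ZFR points lie below all ZLR points for every gene except Cyp7a1, where they lie above.

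Of 14 tested growth hormone axis and sex-biased genes, 5 fell, none rose and 9 were not called (median -0.60). Called lower were 2.46% of all genes tested and 11.7% of those with a mean of 300 to 1000. Cyp3a18, a P450 that is male-predominant in rat liver, measured 24.2, 31.4, 26.0 and 20.0 in ZFR and 932, 813, 744 and 825 in ZLR. It fell 31.7-fold (log2 fold change -4.99, SE 0.15, adjusted p = 3.0e-07), with little spread in either group. Cyp2c11, the main male-specific P450, measured 461, 654, 1797 and 566 against 4210, 3474, 4140 and 3289 and fell 5.04-fold (SE 0.36 on the log2 scale, adjusted p = 0.0059). ZFR replicate 3 lay well above its group there, though still below every ZLR.

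Socs2 and Cish, feedback inhibitors induced by STAT5, both fell. Socs2 measured 10.97, 7.06, 6.27 and 4.67 in ZFR and 39.7, 179, 137 and 198 in ZLR, 15.0-fold lower (adjusted p = 0.0021). Cish measured 44.7, 7.06, 12.5 and 14.0 against 70.2, 201, 63.2 and 157, 6.64-fold lower (adjusted p = 0.022; lost without ZFR 2, 3 and 4 and ZLR 2 and 4, adjusted p up to 0.079). The fifth, Cyp2c13, fell by 0.90 log2 units (adjusted p = 0.023; lost without ZFR 1, 2 and 4 and ZLR 1 and 4, adjusted p up to 0.068). Socs2 was low in all ZFRs, and ZLR replicate 1 was the lowest of the ZLRs for it. For Cish, ZFR replicate 1 lay above the other ZFRs and below the lowest ZLR. Igf1, the circulating mediator of growth hormone made in liver, measured 623, 556, 541 and 468 in ZFR and 879, 1073, 1038 and 1325 in ZLR and fell 1.96-fold (adjusted p = 0.0040). It was the single called gene of 18 tested for glycogen and insulin signalling. Without ZLR replicates 3 and 4, 4 of the 14 growth hormone axis and sex-biased genes were called, all lower.

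Of 16 tested P450 genes of families 1 to 3 and their receptors, 6 were lower, 1 was higher and 9 were not called (median -0.49). Over all genes tested 2.46% were called lower, and 27.6% of those with a mean of at least 1000. Cyp1a2, which clears caffeine, measured 188, 118, 96.1 and 204 in ZFR and 463, 463, 253 and 386 in ZLR, a 2.62-fold fall (adjusted p = 0.021; lost without ZFR 2 and 3 and ZLR 1 and 2, adjusted p up to 0.069). Cyp2d1 fell 1.95-fold (adjusted p = 0.0034) and Cyp2f4 1.82-fold (adjusted p = 0.016; lost without ZFR 2 and 3, adjusted p up to 0.056). The other 3 that fell were Cyp2d2, by 0.73 log2 units (adjusted p = 0.0098; 0.071 with TMM scaling), and, both lost in 7 of 8 leave-one-out fits, Cyp2c23 by 0.39 (adjusted p = 0.0498; kept without ZLR 3, otherwise up to 0.15) and the receptor gene Nr1i3 by 1.63 (adjusted p = 0.046; kept without ZLR 2, otherwise up to 0.13). Cyp2c22 rose 2.84-fold (adjusted p = 0.029), with ZFR values of 2604, 3223, 2091 and 1650 above ZLR values of 1291, 491, 1138 and 616. Its call was lost without ZFR 1, 2 and 3 and ZLR 2 and 4 (adjusted p up to 0.090). The Cyp2c, Cyp2d and Cyp3a genes are families of close relatives, and how reads were split among members is uncertain.

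Of 19 phase II and NRF2 response genes, 2 fell and 1 rose, beside 2.46% and 1.80% of all genes tested. The sulfotransferase Sult1c3 measured 145, 87.4, 127 and 215 in ZFR and 596, 542, 766 and 610 in ZLR, a 4.54-fold fall (adjusted p = 0.00099). Gsta2, a glutathione transferase, fell 2.09-fold (adjusted p = 0.028; lost without ZFR 2 and 4 and ZLR 1 and 3, adjusted p up to 0.085). Gstm3, another, rose from 3.95, 2.85, 0 and 0 in ZLR to 64.8, 60.01, 33.4 and 37.3 in ZFR (adjusted p = 0.0063; lost without ZFR 1 and 2, adjusted p up to 0.054). The 10 largest falls among called genes with a symbol, a mean of at least 50 and groups apart also held 3 enzymes. Fmo1, a flavin monooxygenase, fell 7.22-fold (adjusted p = 0.0058), the aldehyde oxidase Aox3 9.85-fold (adjusted p = 0.0049) and the sulfotransferase Sult1c2a 6.29-fold (adjusted p = 0.016).

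Among called genes with a symbol, a mean of at least 50 and groups apart, the steepest fall was that of Acnat2, an acyl-CoA amino acid N-acyltransferase. It measured 36.0, 15.5, 9.99 and 16.8 in ZFR and 1089, 1238, 1035 and 836 in ZLR, 56.0-fold lower (log2 fold change -5.81, SE 0.32, adjusted p = 1.5e-05). Stac3, known as an adaptor of the muscle calcium channel, measured 9.53, 9.41, 10.4 and 6.22 against 108, 178, 295 and 240 and fell 19.8-fold (adjusted p = 6.9e-05). Car3, a carbonic anhydrase abundant in male rat liver, measured 76.9, 148, 228 and 138 against 3097, 1368, 2539 and 1493 and fell 14.4-fold (adjusted p = 0.00030). All 3 were lower in every ZFR than in any ZLR, as their choice required. Before names were considered, 8 of the 10 largest falls and 2 of the 10 largest rises among such genes carried only a locus identifier. These are not described.

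Of 18 tested glycolysis and gluconeogenesis genes, 3 rose, 1 fell and 14 were not called (median 0.34), and 1 and 1 without ZLR replicates 3 and 4. Called higher were 1.80% of all genes tested and 8.44% of those with a mean of at least 1000. Gckr, which holds glucokinase in the nucleus, measured 296, 180, 263 and 333 in ZFR and 558, 453, 635 and 650 in ZLR, a 2.17-fold fall (adjusted p = 0.011). Slc2a2, the glucose transporter GLUT2, rose 1.40-fold (adjusted p = 0.014) and Gapdh 1.44-fold (adjusted p = 0.013). Neither was called with TMM scaling (adjusted p = 0.12 and 0.095), and Slc2a2 not without ZLR replicates 3 and 4 together (adjusted p = 0.061). Eno1, a glycolytic enolase, rose 1.57-fold (adjusted p = 0.042; lost without all 4 ZFRs in turn and ZLR 2 and 3, adjusted p up to 0.14).

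Of 20 tested urea cycle and amino acid breakdown genes, 4 fell, 1 rose and 15 were not called (median -0.12). Of all genes tested 2.46% were called lower, of those with a mean of 300 to 1000 11.7%, and of those above 27.6%. Hpd, of tyrosine breakdown, measured 1876, 1825, 1567 and 2035 in ZFR and 5657, 3492, 3655 and 3623 in ZLR, a 2.21-fold fall (adjusted p = 0.0035). Oat, which turns ornithine toward glutamate, fell 2.66-fold (adjusted p = 0.017), Hal, the first step of histidine breakdown, 2.503-fold (adjusted p = 0.017), and Cbs, of the transsulfuration pathway, 1.61-fold (adjusted p = 0.0037). Oat was lost without ZFR 2 (adjusted p = 0.052). Arginase, Arg1, rose by 0.61 log2 units (adjusted p = 0.022; lost without ZFR 2, 3 and 4 and ZLR 3 and 4, adjusted p up to 0.079). Of 19 tested genes of branched-chain amino acid catabolism, Acadsb, the short/branched-chain dehydrogenase, fell 2.29-fold (adjusted p = 0.0042) and Ivd, the isovaleryl-CoA dehydrogenase, 1.44-fold (adjusted p = 0.032; lost without each library but ZLR 4, adjusted p up to 0.11), and none rose.

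Secreted proteins of the liver changed in both directions. Acute phase proteins rose in 6 of 15 tested cases and fell in 1 (median 0.32). Over all genes tested 1.80% were called higher, and 8.44% of those with a mean of at least 1000. Lcn2, the iron-siderophore binding lipocalin, measured 118, 152, 146 and 296 in ZFR and 2.07, 2.505, 0 and 10.4 in ZLR (fitted log2 fold change 5.66, SE 0.65, adjusted p = 0.0012). The 2 deep ZLR libraries place Lcn2 near 2 normalized counts, while the value in ZLR replicate 4 rests on 1 read. Orm1, a plasma acid glycoprotein, measured 3040, 2111, 2018 and 2598 against 451, 467, 843 and 522 and rose 4.36-fold (adjusted p = 0.00057). The lipopolysaccharide binding protein Lbp rose 2.12-fold (adjusted p = 0.0035), with ZFR values of 440, 493, 480 and 400 and ZLR values of 283, 203, 190 and 188. Haptoglobin (Hp), Itih4 and ceruloplasmin (Cp) rose by 0.48, 0.66 and 0.39 on the log2 scale (adjusted p = 0.042, 0.041 and 0.027). All 3 were lost without ZFR 1, 3 and 4 and ZLR 2, Hp and Itih4 also without ZLR 1 and 4, and Itih4 and Cp without ZLR 3 (adjusted p up to 0.12, 0.13 and 0.090). Agt, the angiotensinogen gene, fell 1.68-fold (adjusted p = 0.0046; 0.059 with TMM scaling). Without ZLR replicates 3 and 4 the list held 3 genes higher and 1 lower.

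Hepatokines fell in 6 of 16 tested cases and rose in 1. Over all genes tested 2.46% were called lower, and 27.6% of those with a mean of at least 1000. Hamp, the gene of the iron hormone hepcidin, measured 685, 606, 556 and 577 in ZFR and 982, 1200, 1254 and 1483 in ZLR and fell 2.01-fold (adjusted p = 0.0025). Tsku fell 3.27-fold (adjusted p = 0.023), Lect2 2.13-fold (adjusted p = 0.0067) and Inhbc, an activin subunit, 2.09-fold (adjusted p = 0.011). Tsku was lost without ZFR 3 and ZLR 1 and 3 (adjusted p up to 0.063). The fetuins Fetub and Ahsg fell by 0.90 and 0.57 on the log2 scale (adjusted p = 0.0077 and 0.017), and Sparc, a matrix glycoprotein, rose by 0.92 (adjusted p = 0.017). Ahsg was lost without ZFR 3 and 4 (adjusted p up to 0.055) and Sparc without ZFR 2 and 4 (adjusted p up to 0.063).

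Of the 10 liver cell markers, 4 fell and 1 rose, by small folds (2 and 0 without ZLR replicates 3 and 4). Most of the 10 are abundant, and of all genes with a mean of at least 1000, 27.6% were called lower and 8.44% higher. Fga, a fibrinogen chain, fell 1.52-fold (adjusted p = 0.031; lost without each library but ZFR 1 and ZLR 1, adjusted p up to 0.096), and its partner Fgb 1.45-fold (adjusted p = 0.031; lost without each but ZFR 1 and ZLR 4, adjusted p up to 0.096). Cps1, the entry enzyme of the urea cycle, fell 1.496-fold (adjusted p = 0.048; lost without each but ZFR 2 and ZLR 4, adjusted p up to 0.15), and the transthyretin gene Ttr fell by 0.43 log2 units (adjusted p = 0.038; lost without each but ZFR 4, adjusted p up to 0.10). Transferrin, Tf, rose 1.36-fold (adjusted p = 0.019; lost without ZFR 3 and 4 and ZLR 2, adjusted p up to 0.073). None of these 5 markers was near 0 in any library. Of 24 genes of the integrated stress and unfolded protein responses 1 was called, close to the 4.25% of all genes tested, namely Xbp1. It measured 165, 192, 127 and 138 in ZFR and 270, 363, 316 and 355 in ZLR, a 2.10-fold fall (adjusted p = 0.0049).

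The circadian clock differed between the groups in both arms. Of 16 tested clock genes, 4 were higher and 2 lower (median 0.65). Dbp, an output factor driven directly by the clock, measured 109, 265, 272 and 181 in ZFR and 4.55, 28.0, 7.37 and 0 in ZLR (log2 fold change 5.01, SE 0.85, adjusted p = 0.0092; 3.19 to 6.27 across settings). Per2, a repressor of the loop, measured 88.0, 88.2, 81.5 and 77.8 against 12.8, 28.2, 10.5 and 31.3 and rose 4.31-fold (adjusted p = 0.0075). Tef, an output factor related to Dbp, rose 2.29-fold (adjusted p = 0.021; lost without ZFR 2, 3 and 4 and ZLR 1, adjusted p up to 0.077). Per3, another period gene, stood at 43.4, 114, 43.1 and 36.4 against 4.20, 9.67, 0 and 0 (adjusted p = 0.019; lost without each ZFR in turn, adjusted p up to 0.097).

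Both clock genes called lower are activators of the loop. Arntl, the gene of BMAL1, measured 24.5, 8.24, 4.18 and 12.4 in ZFR and 60.8, 43.4, 63.2 and 83.5 in ZLR (log2 fold change -2.46, adjusted p = 0.016; lost without ZFR 2, adjusted p = 0.052). Npas2, a partner of BMAL1, measured 2.45, 0, 2.09 and 7.78 against 37.9, 28.0, 31.6 and 62.7 (log2 fold change -3.65, adjusted p = 0.017; lost without ZLR 1, adjusted p = 0.057). No ZFR value of either reached the lowest ZLR value. Since these transcripts cycle over the day, a difference in collection hour and a difference between genotypes cannot be told apart in these samples. The same limit holds for any gene of the other lists that varies over the day. Without ZLR replicates 3 and 4 the list held 5 genes higher and 2 lower.

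**Figure D4:**
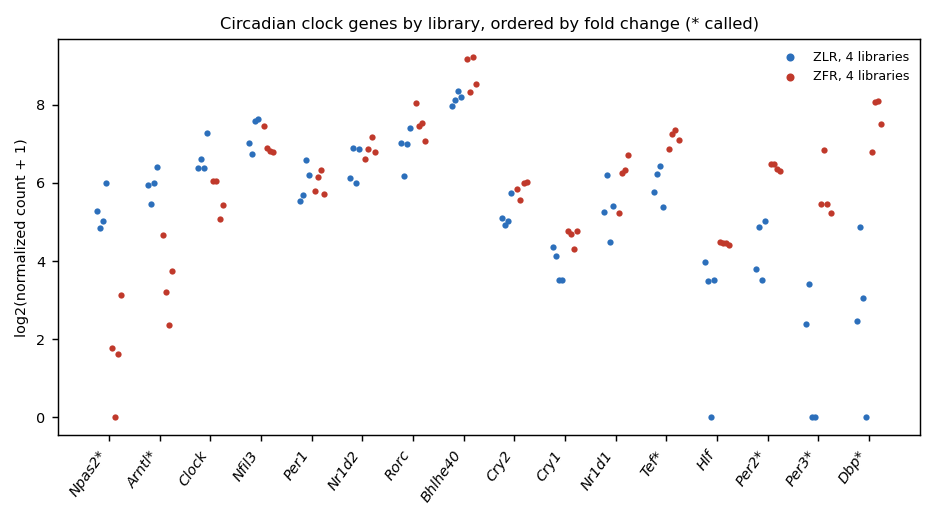
The 16 tested clock genes are ordered from the most negative to the most positive log2 fold change, with each library's log2(normalized count + 1) as a point (ZLR blue, ZFR red) and an asterisk on the 6 genes called. Npas2 and Arntl lie lower in ZFR on the left, and Tef, Per2, Per3 and Dbp lie higher on the right.

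Matrix genes rose in 4 of 18 tested cases and fell in 1 (6 and 0 without ZLR replicates 3 and 4). Of all genes tested, 1.80% were called higher and 2.46% lower. The matrix median of 1.04 was second to the lipogenic genes among the lists with at least 4 genes tested. It was 0.82 without ZLR replicates 3 and 4 and ran from 0.61 to 1.16 across settings. Col3a1, a fibrillar collagen chain, measured 520, 738, 474 and 600 in ZFR and 172, 187, 179 and 251 in ZLR, a 2.94-fold rise (log2 fold change 1.56, SE 0.17, adjusted p = 0.00088). Col4a1, of the basement membrane, measured 112, 175, 146 and 163 against 48.2, 53.8, 84.3 and 83.5 and rose 2.23-fold (adjusted p = 0.020; lost without ZFR 2, 3 and 4 and ZLR 2, adjusted p up to 0.070). Nid1, which links basement membrane proteins, rose by 1.11 log2 units (adjusted p = 0.016; lost without ZFR 1, 2 and 3, adjusted p up to 0.062). Col1a1, the main fibrillar collagen chain, measured 26.6, 74.1, 37.6 and 76.2 against 8.05, 5.74, 0 and 0 (adjusted p = 0.022; lost without each ZFR in turn, adjusted p up to 0.10). Fn1, the fibronectin gene and largely a hepatocyte product, fell 1.31-fold (adjusted p = 0.048; lost without each library but ZLR 1, adjusted p up to 0.14).

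The summed level of the 13 stellate cell and myofibroblast markers was 606 to 762 in ZFR and 479 to 569 in ZLR, without overlap, and 1 of 10 tested was called (2 without ZLR replicates 3 and 4). That gene was Acta2, smooth muscle actin, at 57.2, 58.8, 39.7 and 56.0 in ZFR and 7.85, 6.17, 21.1 and 10.4 in ZLR (log2 fold change 2.24, adjusted p = 0.0077). Of the 10 tested, 8 had a positive log2 fold change and 4 an unadjusted limma p under 0.05, with a median of 0.63. The stellate markers Lrat, Ecm1 and Colec10 had log2 fold changes of -0.01, 0.01 and 0.10. The part of these cells in the matrix result was not tested.

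Among macrophage markers 1 of 13 tested rose (3 without ZLR replicates 3 and 4), beside 1.80% of all genes tested. Gpnmb, a glycoprotein of lipid-laden macrophages, measured 83.3, 132, 85.7 and 134 in ZFR and 23.7, 32.6, 31.6 and 31.3 in ZLR, a 3.50-fold rise (adjusted p = 0.0018). The summed level of the 17 markers was 992 to 1534 in ZFR and 906 to 1137 in ZLR, and the Kupffer cell gene Clec4f (log2 fold change -0.16, adjusted p = 0.66) and the complement genes C1qa, C1qb and C1qc (0.06 to 0.08) were not called. Of 11 sinusoidal endothelial markers, Stab2, a scavenger receptor, rose (log2 fold change 1.16, adjusted p = 0.033; lost without ZFR 1, 3 and 4 and ZLR 1 and 2, adjusted p up to 0.11), and the sums were 534 to 711 in ZFR and 544 to 608 in ZLR. Lyve1 stood at 113 to 134 in ZFR and 125 to 135 in ZLR (adjusted p = 0.76).

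No gene was called by limma among 5 cholangiocyte markers, 5 proliferation genes, 16 interferon and MHC genes or 2 blood markers, of which 1, 0, 1 and 2 had an unadjusted p under 0.05. The sums of the cholangiocyte markers were 169 to 261 in ZFR and 152 to 326 in ZLR. On the log2 scale Anxa4 differed by 0.32 (adjusted p = 0.53), the cyclin gene Ccnd1 by 0.63 (adjusted p = 0.38) and B2m, of the MHC class I complex, by 0.04 (adjusted p = 0.81). The globin Hbb measured 869, 380, 531 and 896 in ZFR and 266, 156, 464 and 261 in ZLR (log2 fold change 1.24, adjusted p = 0.095), and overlapped. The sole tested acinar marker, Cela1, was low throughout and fell (4.18 to 5.503 against 14.8 to 41.8, adjusted p = 0.028; lost without all 4 ZFRs in turn and ZLR 1 and 4, adjusted p up to 0.10). The adipocyte marker Cfd had an adjusted p of 0.80. The adipocyte hormone gene Adipoq stood at 11.1 in ZFR replicate 2 and 8.83 in ZLR replicate 1 and at 0 to 0.102 elsewhere, thus in 1 library of each group.

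**Figure D5:**
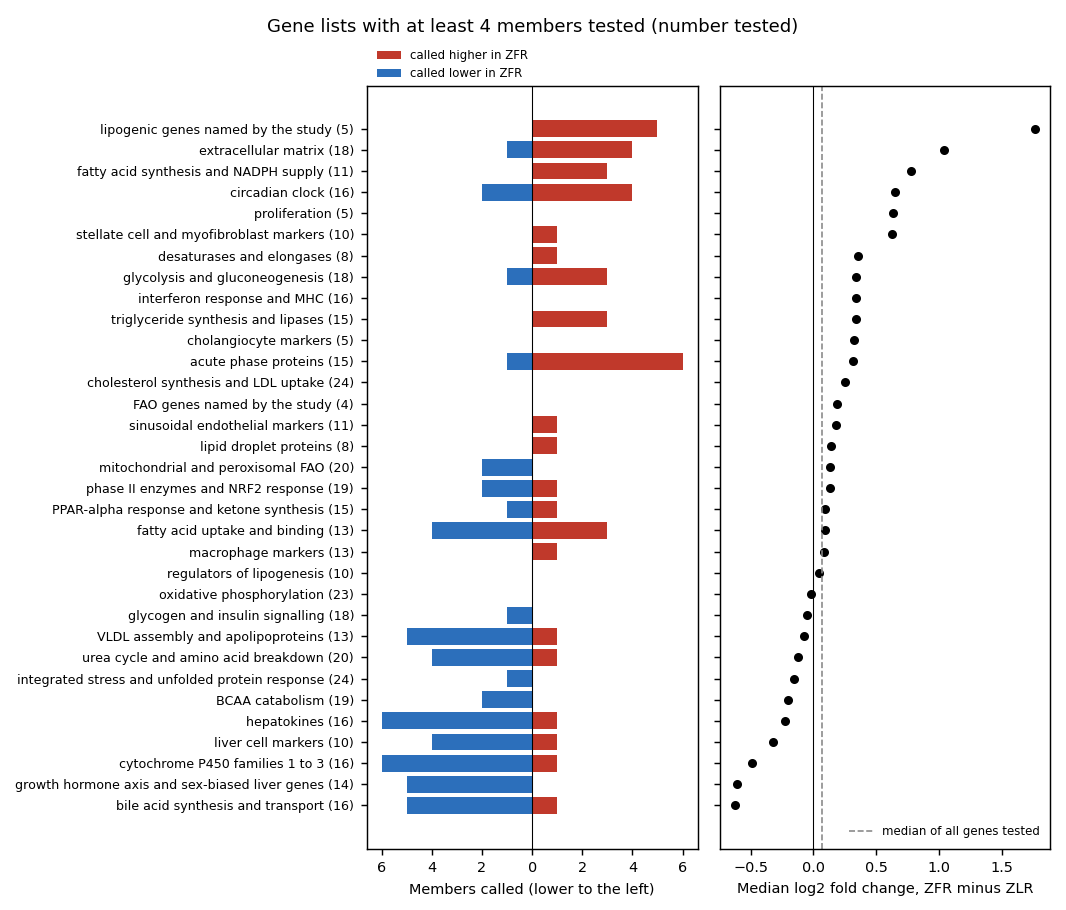
For 33 gene lists with at least 4 members tested (number in brackets), the left panel shows how many members were called higher (red) or lower (blue) in ZFR, and the right panel shows the median log2 fold change, with the median of all genes tested as a dashed line at 0.07. Lists are sorted by the median, from the lipogenic genes at 1.77 to bile acid genes at -0.63. The dashed line is not matched to the abundance of each list.

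Further rises without a list were seen. Wfdc21 measured 839, 337, 466 and 659 in ZFR and 52.5, 33.1, 31.6 and 41.8 in ZLR, a 13.6-fold rise (adjusted p = 7.6e-05), and Anxa5, an annexin that binds phosphatidylserine, rose 5.13-fold (adjusted p = 0.00069). In both, the groups did not overlap, which was a condition of their choice. Sdr16c6, a short-chain dehydrogenase, measured 206, 268, 288 and 292 against 3.46, 25.8, 72.3 and 53.7 (log2 fold change 3.31, adjusted p = 0.034), and Myo7b, an unconventional myosin, 182, 131, 119 and 102 against 15.2, 20.4, 0 and 21.1 (log2 fold change 3.81, adjusted p = 0.042). Both were lost without each ZFR in turn, Sdr16c6 also without ZLR 2 and Myo7b without ZLR 1 (adjusted p up to 0.11 and 0.12).

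The leptin receptor gene itself, Lepr, measured 37.1, 41.2, 54.3 and 31.1 normalized counts in ZFR and 20.5, 12.05, 10.5 and 0 in ZLR. Its groups did not overlap, but the difference did not pass the test (log2 fold change 2.45, SE 0.84, adjusted p = 0.17). Gene counts cannot show the fa mutation, so Lepr does not check the genotype labels. With weights set by the reads behind each value the same gene was called (log2 fold change 1.32, adjusted p = 0.040).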

How the data were processed

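Liver RNA of 4 ZFRs and 4 ZLRs was sequenced from TruSeq poly(A) libraries. Per the methods, the authors aligned reads to the rat genome rn6 with STAR, quantified transcripts with Salmon and normalized with DESeq2. The deposited values are a signal, namely estimated counts per gene divided by normalization factors, not raw counts. They bear on precision, since 1 read is worth 0.0322 to 10.5 normalized counts and scaling hides the depth. Low values were whole multiples of 1 read (within 0.01) in only 74.1% to 88.7% of cases, so reads were not recovered and no count model was fitted. Depth is therefore an estimate (column sum over the value of 1 read), and it limits the shallow libraries by counting error alone.

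Of 32750 entries, 201 without a name (0.0461% of counts) and 4523 with a shared name (2.12%) were left out, and 28026 remained. Genes with a mean of at least 10 were tested with limma 3.58.1 in R 4.3.3 (lmFit and eBayes with trend) on log2(value + 1), with Benjamini-Hochberg adjustment and a threshold of 0.05. Fold changes are on that scale, which can understate changes of low genes and exceeds the ratio of means where a shallow library is at 0 (for Pnpla5, 59.3-fold against 39.6). Groups came from the sample labels and replicate numbers from the titles. Tables of other groups, normalized separately, were not used here. The script was tested on simulated data. Figures were drawn with matplotlib.

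Genes and lists were chosen with earlier results of these data known. Named were genes the study names for rats, Lepr, up to 4 called members per list by size of change with a mean of at least 50 (or the most abundant member where none was called), and the 10 largest rises and falls with a mean of at least 50 and groups apart; other called list members, the markers listed and Adipoq were chosen after their values were seen. The alternatives were another pseudocount (10), no minimum or a mean of 100, TMM scaling, quality or precision weights, run or replicate number as a term, libraries left out, and fits within a run identifier (given in the sample descriptions; replicates 1 and 2 of both groups share one, and 3 and 4 the other). No rat genome or annotation was used here, so no positions or sequences are given. A few results are not reported here.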

Additional observations from a re-analysis of the deposited data

Results flagged for a closer look

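Within each group of 4 libraries, 198 sets of values (estimated depth and 98 genes, per group) were examined for a library far from the other 3 by Dixon's 95% criterion, and 14 stood apart. Chance alone gives about 1 in 20. ZFR replicate 1 held an estimated 58.5 (in units of 1000000 reads), with the next at 1.56, and it also gave the one value of Elovl6 above 0 (0.837) and the highest ZFR value of the aldehyde oxidase Aox3 (28.2 beside 7.90 for the next). ZFR replicate 2 was the highest ZFR for Cps1 (5296) and the lowest for Gpam (238) and Inhbc (88.2). ZFR replicate 3 was the highest for Eno1 (994) and Cyp2c11 (1797, with the next at 654). ZLR replicate 1, a deep library, was the highest ZLR for Scd (4233, with the next at 1896), Hpd (5657) and Lbp (283) and the lowest for Gpnmb (23.7). The shallow ZLR replicate 4 was the highest for Plin3 (73.1) and ZLR replicate 3 for Anxa5 (31.6), values that rest on about 7 and 3 reads. None of these values brought the groups of a called gene into overlap other than that of Cps1.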

How the results depend on the processing

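Counts of genes called depended on the fit far more than directions did. Beside 367 (155 higher, 212 lower), the counts were 241 (117 and 124) with no minimum, 235 (103 and 132) with TMM scaling, 1169 (607 and 562) with sample quality weights, 836 (469 and 367) with precision weights, and 221 (87 and 134) with the replicate block. Leaving out 1 library gave 225 to 379 calls (86 to 183 higher, 133 to 197 lower). Leaving out ZLR replicates 3 and 4, an alternative added after seeing the data, gave 506 (274 and 232). Within the run of replicates 1 and 2 the counts were 239 (134 and 105), and within that of replicates 3 and 4, which holds 4 shallow libraries, 13 (4 and 9; 892 genes at an unadjusted p under 0.05). In every setting each of the 367 genes that was tested kept its direction. The replicate block shared 214 calls with the fit without it. Same-numbered samples deviated together with r of 0.068, 0.117, 0.043 and 0.067 over 1125 genes, and none of the 4 ZFRs correlated best with the ZLR of its own number, so the numbers were not taken as pairs. The lipogenic median of 1.77 ranged from 1.59 to 1.96 with 1 library left out, was 1.53 without ZLR replicates 3 and 4 and 2.04 within the run of replicates 3 and 4. The FAO median of 0.19 was -0.025 with quality weights, 0.042 without ZLR replicates 3 and 4, -0.00064 within the run of replicates 1 and 2 and 0.38 within that of 3 and 4. Signs turned for genes that were not called. Cpt1a went to -0.15 with quality weights, -0.036 without ZLR replicates 3 and 4, between -0.027 (without ZFR replicate 4) and 0.22 with 1 library left out, and -0.13 within the run of replicates 1 and 2. Cfd went to 0.063 with quality weights and between -0.61 and 0.019 (without ZFR replicate 3) with 1 left out. Ecm1 went to -0.0067 with precision weights, between -0.077 and 0.063 with 1 left out (below 0 without ZFR replicate 1 or 4 or ZLR replicate 3), to -0.052 without ZLR replicates 3 and 4 and -0.010 within the run of replicates 1 and 2. B2m went to -0.028 within the run of replicates 1 and 2, and Lyve1 to 0.016 within that of 3 and 4. For these counts, medians and genes the cause was not tested. A fit without the 5 libraries under 5000000 reads was not run, since 1 ZFR would remain, and neither was a count model, for want of recovered reads.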
